A study of Mus musculus with 10 samples.

Results

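The regions described are distal Pax5 peaks outside repeats that were present in Pax5+/+ pro-B cells and had no counterpart in Pax5R31Q/- pro-B cells. A peak of the Pax5+/+ list belonged to them if it was under 1000 bp wide, overlapped no peak of the Pax5R31Q/- list, had no base within 1000 bp of a RefSeq transcription start site (TSS) on GRCm38/mm10, and was under 50% soft-masked, which means that less than that share of its bases is marked as repeat in the genome sequence. Of the 41983 Pax5+/+ peaks, 6417 met these criteria and are called lost distal peaks. They were compared with 6082 shared distal peaks, which met the same criteria except that they overlapped 1 or more of the 18821 Pax5R31Q/- peaks. Among the distal peaks outside repeats, the lost share was 51.3% (95% interval 50.5 to 52.2), and among the 9368 such peaks within 1000 bp of a TSS it was 10.7% (10.04 to 11.3).

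Pax5 is the transcription factor that commits lymphoid progenitors to the B cell lineage, and it acts both as an activator and as a repressor. It binds DNA through the paired domain, whose N-terminal and C-terminal subdomains contact adjacent parts of a long recognition sequence. Residue 31, an arginine that the R31Q allele changes to glutamine, lies in the N-terminal subdomain. Distal Pax5 sites in pro-B cells include enhancers, which act on genes over a distance and are often bound by several lymphoid factors at once.

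The peaks came from 1 ChIP-seq library per genotype, prepared with a polyclonal antibody against the paired domain, from C57BL/6 pro-B cells cultured for a short time on OP9 stroma with IL-7. The Pax5+/+ cells of this experiment were also Rag2-/-, whereas the labels do not give the Rag2 genotype of the Pax5R31Q/- cells in a form that can be used, so that the Pax5 and Rag2 genotypes cannot be told apart in the peak lists. RNA-seq was done on pro-B cells sorted ex vivo from bone marrow, with 2 libraries for each of 4 genotypes: Pax5+/+, Pax5+/- (1 null allele), Pax5R31Q/- (1 R31Q allele over a null allele) and Pax5fl/fl Vav-Cre, in which Cre driven by Vav removes Pax5 in blood cells from their stem cells on and whose cells the labels call progenitors. The labels do not say that the libraries of a genotype came from separate mice, so p-values measure only the spread between these libraries, which may be technical.

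A lost peak is one that the peak caller did not report. The deposited peak lists hold positions with a score of 0 throughout, so the height of a peak and the depth behind it are unknown, and weaker binding cannot be told apart from no binding. With 1 library per genotype no test over replicates was possible for peaks. Shares are therefore given with exact binomial 95% intervals and differences of shares with Newcombe 95% intervals, which cover counting error only.

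The 5 lost peaks shown here make the differences between sites visible. They had the best consensus matches among the lost peaks of the named genes that were called lower in Pax5R31Q/- cells, with 1 peak per gene. A second lost peak of Edaradd and one of Tmem132e also had 3 mismatches and are not shown. Each sequence is the 200 bp of GRCm38/mm10 around the peak midpoint, read 5′ to 3′ on the plus strand and named by the assigned gene. Capitals mark the 15-bp stretch most like the Pax5 consensus, in which position 1 is the end toward the C-terminal subdomain and positions 9 to 15 form the part toward the N-terminal subdomain. Position 4 takes any base, and a stretch with at most 3 mismatches over the other 14 positions was called a consensus match.
Hdac11: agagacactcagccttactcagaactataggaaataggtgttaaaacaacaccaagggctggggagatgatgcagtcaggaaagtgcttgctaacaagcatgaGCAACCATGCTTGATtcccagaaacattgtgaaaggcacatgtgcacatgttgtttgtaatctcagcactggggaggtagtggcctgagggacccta
Edaradd: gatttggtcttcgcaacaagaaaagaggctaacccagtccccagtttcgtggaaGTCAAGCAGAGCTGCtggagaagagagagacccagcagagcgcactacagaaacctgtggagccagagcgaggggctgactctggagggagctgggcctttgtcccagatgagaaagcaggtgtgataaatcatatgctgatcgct
Nedd9: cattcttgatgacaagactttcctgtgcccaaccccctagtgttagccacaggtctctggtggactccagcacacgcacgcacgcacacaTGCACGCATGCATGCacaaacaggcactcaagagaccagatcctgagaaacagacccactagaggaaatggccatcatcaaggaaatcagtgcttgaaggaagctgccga
Parvb: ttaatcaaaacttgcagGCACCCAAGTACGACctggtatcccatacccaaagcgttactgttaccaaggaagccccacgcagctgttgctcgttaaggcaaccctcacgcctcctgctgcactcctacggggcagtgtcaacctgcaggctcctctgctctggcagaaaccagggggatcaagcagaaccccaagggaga
Tmem132e: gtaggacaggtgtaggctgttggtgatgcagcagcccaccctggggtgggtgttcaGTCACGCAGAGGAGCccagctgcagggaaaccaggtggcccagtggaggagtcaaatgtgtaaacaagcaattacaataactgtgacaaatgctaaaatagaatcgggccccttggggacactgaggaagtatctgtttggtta
The Hdac11 window (chr6:91149592-91149791) lay in an intergenic region, 6978 bp upstream of the nearest TSS. Its match was on the plus strand and differed from the consensus at positions 11 and 15. The Edaradd window (chr13:12503364-12503563) lay in an intron, with a match on the minus strand that differed at positions 6, 7 and 11. The Nedd9 window (chr13:41346011-41346210), also intronic, had a match on the minus strand that differed at positions 5, 14 and 15. The Parvb window (chr15:84303103-84303302) was intronic, and its match on the plus strand differed at positions 10, 11 and 12. The Tmem132e window (chr11:82359704-82359903) was intergenic, 29048 bp upstream of the nearest TSS, with differences on the minus strand at positions 3, 6 and 7. Mismatches thus lay in both parts of the site. The matches at Edaradd, Parvb and Tmem132e lay more than 30 bp from the peak midpoint, and binding at the marked stretches was not tested.

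Lost distal peaks were narrow. Their median width was 308 bp (quartiles 268 and 363 bp) against 394 bp (323 and 509 bp) for shared distal peaks. The lost share decreased with width, from 77.6% of the 1247 distal peaks of 180 to under 250 bp to 19.2% (16.8 to 21.8) of the 1000 peaks of 600 to under 1000 bp. Width was measured in the Pax5+/+ list alone. A peak that only just passed the caller's threshold is usually narrow, and the part that peak strength had in the loss was not tested.

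**Figure D1:**
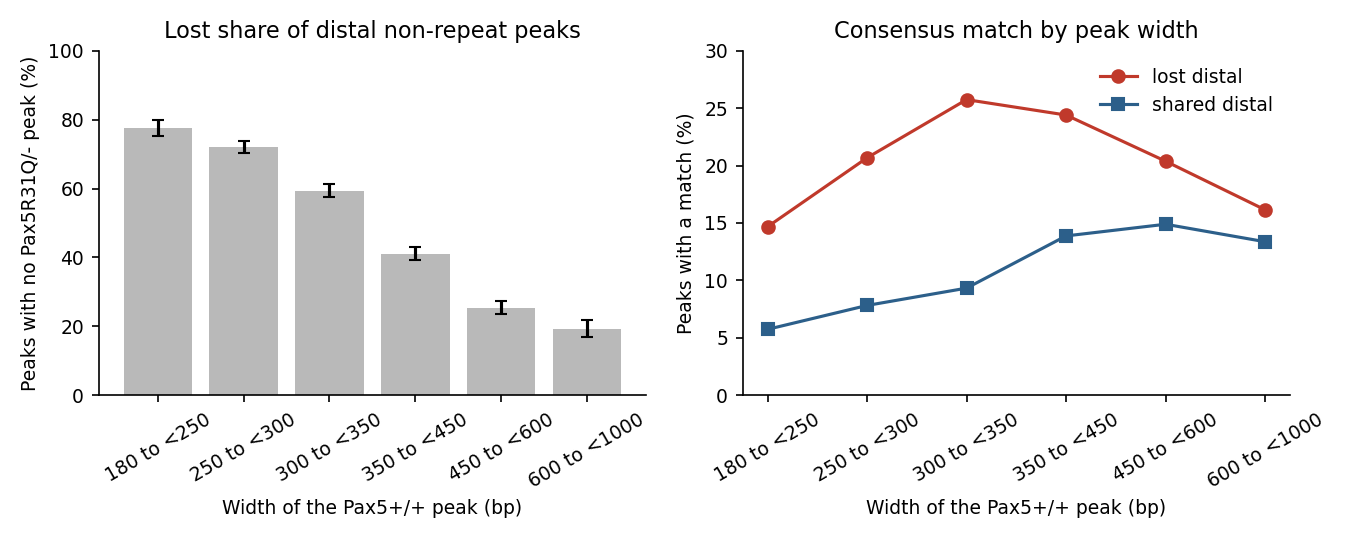
Left, share of distal non-repeat Pax5+/+ peaks with no overlapping Pax5R31Q/- peak, by peak width in bp, with exact 95% intervals as error bars. Right, share of lost (circles) and shared (squares) distal peaks with a Pax5 consensus match in the central 200 bp, by width. The lost share falls from 77.6% to 19.2%, and lost peaks have the higher match share below 600 bp, while in the widest class the interval of the difference (-2.41 to 9.03 points) includes 0.

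The lost peaks were spread over the genome. Their median distance to a TSS was 15950 bp (quartiles 6047 and 36462 bp), compared with 11141 bp for shared distal peaks. Introns held 54.0% (52.7 to 55.2) of the lost peaks and 51.1% (49.8 to 52.4) of the shared peaks, exons held 7.54% (6.91 to 8.22) against 10.1% (9.35 to 10.9), and intergenic sequence held 38.5% against 38.8%. By autosome the lost share ranged from 44.6% on chromosome 11 (of 879 distal peaks) to 56.7% on chromosome 14 (of 467). The immunoglobulin loci, where Pax5 is known to take part in locus contraction, held few of these peaks, with 9 lost and 6 shared at Igh (chromosome 12, 113256204 to 116009954), 7 and 6 at Igk (chromosome 6, 67555636 to 70726754), and 2 and 1 at Igl (chromosome 16, 19061752 to 19260844). Peaks outside repeats but within 1000 bp of a TSS numbered 12 lost and 5 shared at Igh and 13 and 3 at Igk.

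The gap from a lost peak to the nearest called Pax5R31Q/- peak was measured. The median gap was 27509 bp, and 2326 lost peaks (36.2%) were over 50 kb from one. Only 128 (1.99%) lay within 500 bp of a Pax5R31Q/- peak. The limits of the rule cut through a continuum in repeat content, with 26 members at 49 to 50% soft-masked bases and 29 otherwise eligible peaks just outside at 50 to 51%. At the TSS limit, 37 members lay up to 100 bp beyond it and 61 otherwise eligible peaks less than 100 bp within it. Repeated sequence remained in 396 members (6.17%) and 420 shared peaks (6.91%), counted as holding a stretch of 24 bases that occurs in 10 or more Pax5+/+ peaks.

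The lost distal peaks matched the Pax5 consensus more often than the shared ones. A match was present in 1387 of the 6417 lost peaks (21.6%, 20.6 to 22.6) and in 735 of the 6082 shared distal peaks (12.1%, 11.3 to 12.9), a difference of 9.53 percentage points (8.23 to 10.8). Its size depended on the mismatches allowed and on peak width, as given in the section on processing. In windows of the same size 1 kb to each side of the peaks, the shares were 1.90% and 2.39%. Among peaks close to a TSS, the 998 lost peaks had a match in 14.2% of cases and the 8370 shared peaks in 4.92%. Lost peaks thus had the higher share both at promoters and away from them, and distal lost peaks exceeded promoter lost peaks by 7.39 points (4.88 to 9.66).

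In width classes the difference was largest at 300 to under 350 bp (16.4 points, 13.7 to 19.1), and its interval included 0 only in the widest class. In peaks of 180 to under 250 bp, 14.7% of lost and 5.73% of shared peaks held a match (8.93 points, 4.96 to 12.1), and in peaks of 600 to under 1000 bp the shares were 16.1% of 192 and 13.4% of 808 peaks (2.78 points, -2.41 to 9.03). The lost share also varied with the quality of the best site, from 69.2% where it had 1 mismatch (72 of 104 peaks) and 65.0% with 3 mismatches to 45.2% with 6 (959 of 2121). In the 54 peaks with 7 mismatches it was 59.3%, with an interval (45.03 to 72.4) that included the share at 6 mismatches. Base composition differed between the classes, with a median GC content of 45.9% in lost and 50.6% in shared distal peaks. Among peaks with 45 to 52% GC, a class chosen after seeing the data, the difference in matches was 8.44 points (6.40 to 10.5).

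Consensus matches lay at the peak centres. Of the matches in lost peaks, 1100 of 1387 (79.3%) were within 30 bp of the midpoint, and of those in shared peaks 476 of 735 (64.8%).

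**Figure D2:**
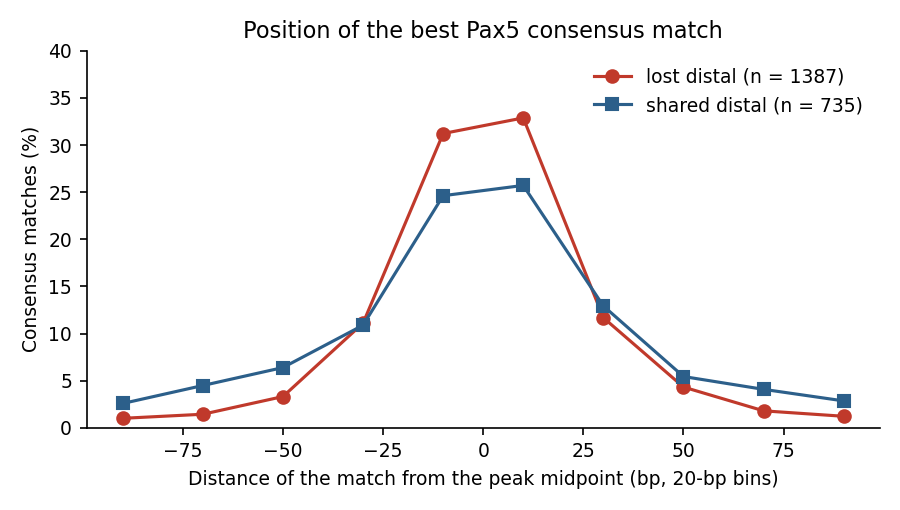
Distance of the best Pax5 consensus match from the peak midpoint in bp (20-bp bins), as a share of all matches, for 1387 matches of lost and 735 of shared distal peaks. Both curves peak at the midpoint, and 79.3% of matches in lost peaks against 64.8% in shared peaks are within 30 bp of it.

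Within the matches, the sites of lost and shared peaks differed most at position 11. The consensus base was present there in 52.1% of matches in lost peaks and 69.5% in shared peaks, a difference of -17.4 points (-21.6 to -13.1). The consensus base was also less frequent in lost peaks at position 13 (-2.96 points, -5.49 to -0.23), at position 14 (-6.79, -10.3 to -3.10) and at position 15 (-7.39, -10.6 to -3.997). By contrast, it was more frequent at positions 3 and 6 to 9. The difference there was largest at position 8, with 94.1% of lost and 83.0% of shared matches (11.1 points, 8.21 to 14.2). At positions 1, 2, 5, 10 and 12 the intervals of the differences included 0. Because all matches were allowed the same number of mismatches, more consensus bases in one part of the site leave more mismatches for the other, and the 2 parts are not independent measures.

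Restricting the matches to those within 30 bp of the midpoint, a choice made after seeing the data, gave the same direction at positions 11 (-20.7 points, -25.5 to -15.6), 14 (-9.22) and 15 (-10.98), and at position 8 (13.7).

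**Figure D3:**
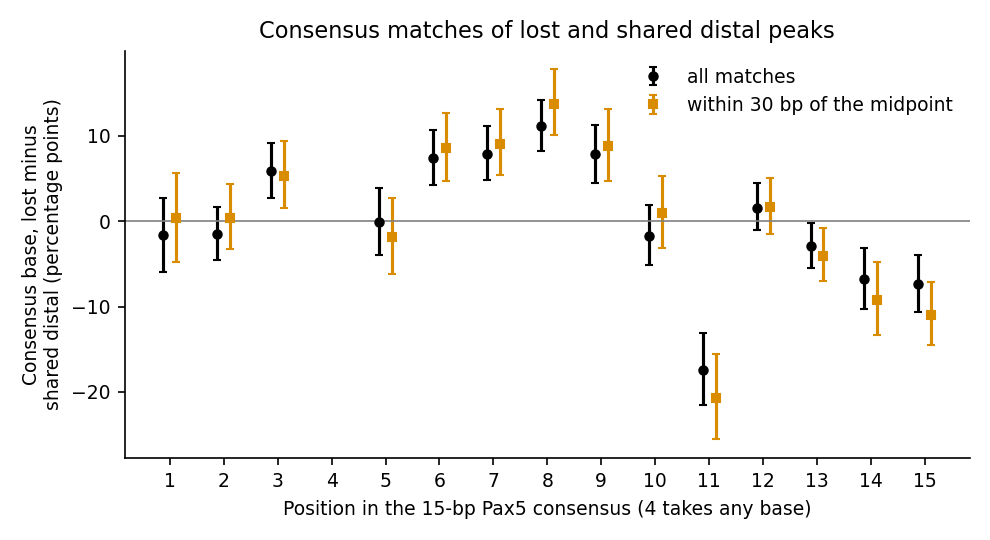
Percentage of consensus matches with the consensus base at each position of the 15-bp site, lost minus shared distal peaks in percentage points, for all matches (circles) and for those within 30 bp of the peak midpoint (squares), with Newcombe 95% intervals. Values are above 0 at positions 3 and 6 to 9 and lowest at position 11, at -17.4 points for all matches.

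To read positions 11 to 15 without requiring them to match, sites were also found by positions 1 to 10 alone, with at most 1 mismatch. Such a site was present in 1690 lost peaks (26.3%) and 960 shared distal peaks (15.8%), a difference of 10.6 points (9.13 to 11.96), against 8.31% and 9.91% in the windows beside them. Position 11 next to these sites was A in 52.4% of lost and 32.1% of shared peaks (20.3 points, 16.4 to 24.01), and the flanking windows of the 2 classes had A in 34.4% and 31.4%. The consensus base G was found in 20.1% and 21.7%, a difference of -1.55 points whose interval included 0 (-4.83 to 1.63). The sign of this difference changed with peak width, as given in the section on processing. The bases C and T were both less frequent in lost peaks, at 12.7% against 23.9% and 14.9% against 22.4%. In the flanking windows G was found in 7.78% and 9.87%.

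At positions 12 to 15 the consensus base followed the site more often in lost peaks. T at position 12 was present in 50.6% of lost and 34.9% of shared peaks (15.7 points, 11.8 to 19.5), and G at position 13 in 47.1% and 36.2% (10.9 points, 6.96 to 14.7). The differences at position 14 (A, 4.55 points, 0.76 to 8.28) and position 15 (C, 4.04 points, 0.17 to 7.86) were smaller, and that at position 14 was -1.73 points when sites with 1 mismatch fewer were used. These differences have the opposite sign to those of the full matches at positions 13 to 15, which were chosen by all positions, and the cause of the change in sign was not tested. Sites chosen in this way exceeded those of the flanking windows by 18.02 points in lost peaks and by 5.87 points in shared peaks, and the part of background matches in the base frequencies was not tested.

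Read together, the bases from position 11 on were most often ATG, found in 375 of 1690 sites (22.2%) in lost and in 81 of 960 (8.44%) in shared peaks, a difference of 13.8 points (11.03 to 16.3). The bases GTG, which continue the consensus, were found in 7.99% and 7.08% (0.90 points, -1.26 to 2.92). Over all of positions 11 to 15, ATGAC was the most frequent ending, with 111 sites (6.57%) in lost and 32 (3.33%) in shared peaks, and the consensus ending GTGAC was found in 32 (1.89%) and 22 (2.29%).

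Short motifs from either part of the Pax5 site and those of other factors were then counted on both strands of the same 200-bp windows. The letters CANCCANGC, which are positions 2 to 10, were found in 13.4% of lost and 7.99% of shared distal peaks (5.38 points, 4.30 to 6.46). The shorter core CATGC from positions 6 to 10 was found in 49.3% and 34.7% (14.5 points, 12.8 to 16.2), with 29.7% and 30.7% in the flanking windows. Shared peaks were thus closer to their surroundings. GCGTGAC, which is positions 9 to 15 and overlaps CANCCANGC by 2 bases, had the opposite direction, with 5.11% of lost and 7.73% of shared peaks (-2.62 points, -3.48 to -1.76). All of these shares exceeded those in the central 200 bp of the RefSeq promoter windows of 32851 genes, which were 4.02% for CANCCANGC, 23.2% for CATGC and 1.54% for GCGTGAC.

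Motifs of several other lymphoid factors were less frequent in lost than in shared distal peaks. The Ebf1 motif CCCNNGGG, whose factor specifies early B cells together with E2A and Pax5, was found in 7.67% of lost and 14.8% of shared peaks (-7.15 points, -8.26 to -6.04), compared with 9.91% of promoters. The E2A E-box CAGGTG was found in 16.9% and 23.7% (-6.83 points) and the E-box CAGCTG in 17.3% and 25.3% (-7.98 points, -9.41 to -6.54). These letters are bound by E proteins and related factors, and their promoter shares were 13.9% and 10.9%. The Runx motif TGTGGTT was found in 8.90% and 14.4% (-5.52 points, -6.65 to -4.40), and the motif AGGAAGT of PU.1, an Ets factor of lymphoid and myeloid cells, in 11.7% and 15.9% (-4.28 points).

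Smaller differences of the same direction were measured for the Ets motif CCGGAAG (-1.61 points), the Ikaros motif TGGGAA (-1.65 points) and the CTCF motif CCACNAGG (-1.85 points). By width, Ikaros was at -1.11 points (-3.19 to 0.90) in peaks of 250 to 350 bp and -3.30 in those over 350 and up to 500 bp, and at -1.22 (-2.72 to 0.28) with 150 bp to each side of the midpoint. CTCF was at -3.54 points in peaks of 250 to 350 bp. Ikaros letters were no more frequent in the peaks (14.9% and 16.6%) than in the flanking windows (18.3% and 18.1%). For AP-1 (0.29 points, -0.63 to 1.21), Stat5 (0.26 points) and Foxo (0.57 points, -0.05 to 1.18) the intervals included 0, but that of Foxo did not with a TSS limit of 5 kb (0.83 points, 0.12 to 1.54) or 150 bp to each side of the midpoint (0.84, 0.096 to 1.58). The Mef2 motif TATTTATA was rare and more frequent in lost peaks, at 1.36% against 0.839% (0.52 points, 0.15 to 0.89). Both shares were below those of the flanking windows, which were 1.86% and 1.61%. Among peaks with 45 to 52% GC the differences for Runx (-8.06 points, -9.84 to -6.27), PU.1 (-3.65), CAGCTG (-3.90), CAGGTG (-4.60) and Ebf1 (-2.30, -3.97 to -0.62) kept their sign, while the intervals for Ets (-0.29, -1.16 to 0.58), CTCF (-0.57, -1.79 to 0.66), Ikaros (-1.58, -3.59 to 0.44) and Mef2 (-0.16, -0.69 to 0.38) included 0. The differences for Ebf1, CAGCTG and CAGGTG were thus smaller in this class than over all peaks, and that for Runx was not.

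Among the lost peaks themselves, those with a Pax5 consensus match held PU.1, Runx and CAGCTG letters less often than those without. PU.1 letters were found in 6.99% of the lost peaks with a match and in 12.96% of those without (-5.97 points, -7.52 to -4.25), and Runx letters in 4.83% and 10.02% (-5.19 points, -6.52 to -3.70). The shared peaks had the same direction, with PU.1 letters in 10.6% and 16.7% and Runx letters in 9.39% and 15.1%. Ikaros letters were more frequent in lost peaks with a match (17.0% against 14.4%).

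**Figure D4:**
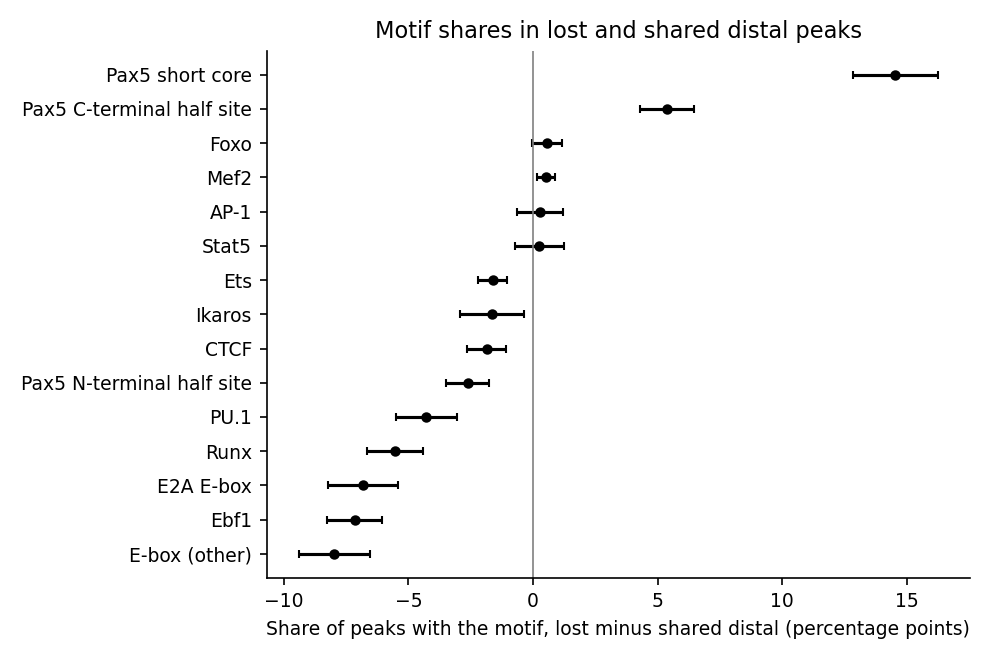
Share of peaks holding each motif in the central 200 bp, lost minus shared distal peaks in percentage points, with Newcombe 95% intervals (6417 lost and 6082 shared peaks). Letters from positions 2 to 10 of the Pax5 site lie on the right, up to 14.5 points, and the Pax5 letters from positions 9 to 15 lie on the left with PU.1, Runx, Ebf1 and the E-boxes.

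To set the peaks beside expression, each lost peak was assigned to the gene whose body held its midpoint, or otherwise to the gene with the nearest TSS within 50 kb. By gene body 3441 peaks (53.6%) were assigned and by nearest TSS 1732 (27.0%), and 1244 (19.4%) had no gene. The 3812 genes with a lost distal peak included 2552 that were tested, since they had at least 1 TPM (a level scaled for gene length and library total) in at least 1 library. Most of the 3812 genes, 2903, had a single lost peak, 40 had 5 or more, and the most was 8. Genes were tested with limma on log2(TPM + 1), with p-values adjusted by the Benjamini-Hochberg method over all 13436 genes tested. A gene was called lower or higher when its adjusted p was under 0.05, its difference over 3-fold and its mean over 5 TPM in 1 of the 2 genotypes. The scale understates the change of genes with low TPM, and immunoglobulin genes were left out of the calls.

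Few genes with a lost distal peak passed this call in Pax5R31Q/- pro-B cells, and smaller changes were not counted by it. Of the 2552 genes with a lost distal peak, 35 (1.37%) passed the call as lower than in Pax5+/+ cells and 16 (0.627%) as higher. Over all 13436 genes tested the shares were 0.558% and 0.275%. Among the 10884 genes without a lost distal peak the counts were 40 (0.368%) lower and 21 (0.193%) higher. The median log2 fold change was 0.02 for genes with a lost peak and 0.04 for all genes. The numbers of the replicates follow the order of deposition and only name the libraries. Without Pax5+/+ replicate 2 the number called lower was 22, and without Pax5R31Q/- replicate 1 the number called higher was 10.

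Other features of these genes moved with the calls. Genes with a lost peak were longer, with a median of 49.3 kb against 16.6 kb for genes without one. Within genes of 10 to 50 kb, 16 of 971 (1.65%) with a lost peak and 16 of 5010 (0.319%) without were called lower, and above 50 kb 18 of 1263 (1.43%) and 11 of 1748 (0.629%). Below 10 kb the counts were 1 of 318 (0.314%) and 10 of 3583 (0.279%). Genes that also had a shared distal peak were called lower in 22 of 986 cases (2.23%), those with lost distal peaks alone in 13 of 1566 (0.830%), those with shared distal peaks alone in 16 of 1600 (1.0%) and those with neither in 24 of 9284 (0.259%). Where the promoter peak was lost too, 5 of 105 genes (4.76%) with and 11 of 269 (4.09%) without a lost distal peak were called lower, whereas with a shared promoter peak the counts were 15 of 1582 (0.948%) and 10 of 6083 (0.164%). In genes without a promoter peak they were 15 of 865 (1.73%) and 19 of 4532 (0.419%).

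The same genes were examined in Pax5fl/fl Vav-Cre cells, a contrast that shares the Pax5+/+ libraries. Of the 2552 genes with a lost distal peak, 154 (6.03%) were called lower and 98 (3.84%) higher, with 3.45% lower and 2.87% higher over all genes. The 36 tested genes with 5 or more lost peaks included 8 called lower and 0 called higher by limma in the Vav-Cre cells (7 were higher at an unadjusted p under 0.05), and 2 called lower and 1 called higher in Pax5R31Q/- cells. Over all genes 0.558% were called lower and 0.275% higher in Pax5R31Q/- cells. In Pax5+/- cells 2 genes with a lost peak, Enpep and Hdac11, were called lower (0.0223% of all genes were called lower in that contrast) and 0 higher (0.0% of all genes). At an unadjusted p under 0.05 limma gave 139 lower and 96 higher genes with a lost peak in that contrast. Both calls were lost with any 1 library of either genotype left out, with adjusted p from 0.0801 to 0.221 for Enpep and from 0.0627 to 0.120 for Hdac11, and with only these 2 genotypes fitted (0.194 for both).

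The gene with a lost distal peak that fell most in Pax5R31Q/- cells was Enpep, on chromosome 3 from 129269177 to 129332749. It encodes aminopeptidase A, the BP-1 antigen on the surface of early B cells. Enpep had 22.6 and 15.8 TPM in the Pax5+/+ libraries, 2.36 and 2.88 in Pax5+/-, 0.0682 and 0.0175 in Pax5R31Q/-, and 0.0237 and 0 in Vav-Cre cells. The Pax5+/- libraries lay between the other genotypes and no genotype overlapped Pax5+/+. The log2 fold change was -4.26 ± 0.21 (SE, limma adjusted p = 0.000237) in Pax5R31Q/-, -4.30 in Vav-Cre and -2.47 in Pax5+/- cells (adjusted p = 0.0174, over 0.05 with any 1 library of that contrast left out). Its lost peak lay 1801 bp upstream of the TSS (chromosome 3, 129334264 to 129334836), and a distal peak in an exon was shared. The best site in the lost peak had 6 mismatches.

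Hdac11, a class IV histone deacetylase on chromosome 6 from 91156670 to 91174692, had 40.6 and 48.7 TPM in Pax5+/+, 5.38 and 6.74 in Pax5+/-, 2.53 and 2.56 in Pax5R31Q/- and 13.7 and 11.3 in Vav-Cre libraries. Its level was therefore lower with the R31Q allele than in Vav-Cre cells, and the ranges did not overlap. Hdac11 had a shared promoter peak and no shared distal peak. The log2 fold changes were -3.68 ± 0.18 (SE, limma adjusted p = 0.000237) in Pax5R31Q/-, -1.76 in Vav-Cre and -2.69 in Pax5+/- cells (adjusted p = 0.00464, likewise over 0.05 with any 1 library left out).

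Polm, which encodes DNA polymerase mu of the end-joining pathway, lies on chromosome 11 from 5827860 to 5838832. Its TPM were 34.8 and 31.1 in Pax5+/+, 17.7 and 12.3 in Pax5+/-, 1.87 and 2.01 in Pax5R31Q/-, and 1.26 and 0.919 in Vav-Cre libraries. The Pax5R31Q/- libraries were above the Vav-Cre libraries and below all others. The log2 fold change was -3.53 ± 0.21 (SE, limma adjusted p = 0.000313), and the midpoint of the lost peak was in an exon, 3037 bp from the nearest TSS. The best site in that peak had 6 mismatches, while 1 distal peak and the promoter peak were shared.

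Edaradd, the adaptor of the ectodysplasin receptor (chromosome 13, 12471209 to 12520535), had 2 lost intronic peaks, each with a consensus match of 3 mismatches. It also had 2 shared distal peaks and a shared promoter peak. Its TPM were 26.0 and 26.2 in Pax5+/+, 8.54 and 9.35 in Pax5+/-, 1.48 and 1.52 in Pax5R31Q/-, and 0.381 and 0.489 in Vav-Cre libraries. The 4 genotypes were ordered without overlap. The log2 fold change in Pax5R31Q/- was -3.44 ± 0.15 (SE, limma adjusted p = 0.000237).

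Nedd9, an adaptor protein of integrin signalling and cell migration (chromosome 13, 41309916 to 41487362), had 5 lost and 2 shared distal peaks, all in introns. Its promoter peak was shared. It had 225 and 185 TPM in Pax5+/+, 186 and 189 in Pax5+/-, 45.4 and 44.9 in Pax5R31Q/-, and 18.7 and 19.3 in Vav-Cre libraries. The Pax5+/- libraries lay within the range of Pax5+/+, and the other genotypes were below it. The log2 fold change in Pax5R31Q/- was -2.15 ± 0.12 (SE, limma adjusted p = 0.000313), and that in Vav-Cre was -3.36 (limma adjusted p = 4.15e-06).

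Parvb, the focal adhesion protein beta-parvin, had 1 lost intronic peak among 3 shared distal ones. Its TPM were 59.5 and 77.6 in Pax5+/+, 40.9 and 31.4 in Pax5+/-, 12.7 and 11.3 in Pax5R31Q/-, and 10.4 and 10.6 in Vav-Cre libraries. Pax5R31Q/- and Vav-Cre levels were thus both well below Pax5+/-, and the log2 fold changes were -2.41 ± 0.18 (SE, limma adjusted p = 0.000916) and -2.58.

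Tmem132e, which encodes a transmembrane protein, had 2 lost and 2 shared distal peaks. It had 68.2 and 90.8 TPM in Pax5+/+, 28.1 and 19.3 in Pax5+/-, 13.2 and 8.15 in Pax5R31Q/-, and 0.361 and 0.112 in Vav-Cre libraries. The Pax5R31Q/- cells kept a level that the Vav-Cre cells lacked, with log2 fold changes of -2.81 ± 0.28 (SE, limma adjusted p = 0.00258) and -6.02. Heyl, a transcriptional repressor of the Notch pathway whose promoter peak was lost too, had the same order, with 68.7 and 70.2 TPM in Pax5+/+, 52.8 and 33.3 in Pax5+/-, 13.5 and 9.27 in Pax5R31Q/-, and 0 and 0.0312 in Vav-Cre libraries. Its log2 fold change in Pax5R31Q/- was -2.53 ± 0.25 (SE, limma adjusted p = 0.00254).

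Siglecg, an inhibitory sialic acid-binding receptor of B cells, had a lost peak 15293 bp upstream and a lost promoter peak. Its TPM were 215 and 275 in Pax5+/+, 156 and 141 in Pax5+/-, 44.2 and 46.3 in Pax5R31Q/-, and 10.6 and 15.9 in Vav-Cre libraries. The order of the genotypes was again Pax5+/+, Pax5+/-, Pax5R31Q/- and Vav-Cre without overlap, and the log2 fold change in Pax5R31Q/- was -2.40 ± 0.20 (SE, limma adjusted p = 0.00126).

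Of the other 4 genes among the 12 that fell most, Crhbp, a binding protein of corticotropin-releasing hormone, had 2 lost peaks and went from 7.10 and 11.5 TPM in Pax5+/+ to 0.0854 and 0.131 in Pax5R31Q/-. Dkk3, a secreted protein of the Dickkopf family with a lost promoter peak, went from 7.37 and 8.98 to 0.09998 and 0.0614. Both were called lower. Lpcat2, an acyltransferase of phospholipid synthesis, had 14.9 and 19.9 TPM in Pax5+/+ and 2.24 and 2.84 in Pax5R31Q/-, and its limma adjusted p of 0.0042 became 0.0634 without Pax5R31Q/- replicate 1. Rab6b, a small GTPase of Golgi transport, had 14.6 and 26.9 against 5.20 and 1.15 TPM. Its call (limma adjusted p = 0.042) was lost in 7 of 9 settings of the test, with adjusted p up to 0.279 without Pax5+/+ replicate 2 and values of 0.0657 without Pax5+/+ replicate 1, 0.0514 without Pax5R31Q/- replicate 1 and 0.230 without Pax5R31Q/- replicate 2.

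Genes with a lost distal peak were also called higher. Rgs10, a regulator of G protein signalling with 2 lost peaks, had 29.9 and 26.1 TPM in Pax5+/+, 69.6 and 55.1 in Pax5+/-, 171 and 176 in Pax5R31Q/-, and 56.3 and 48.9 in Vav-Cre libraries. Its highest level was thus with the R31Q allele and not in Vav-Cre cells, and the log2 fold change was 2.59 ± 0.15 (SE, limma adjusted p = 0.000313). Tmtc1, an O-mannosyltransferase of the endoplasmic reticulum with 3 lost peaks, had 2.26 and 2.04 TPM in Pax5+/+, 3.48 and 3.27 in Pax5+/-, 17.0 and 16.4 in Pax5R31Q/-, and 0.346 and 0.220 in Vav-Cre libraries. It rose in Pax5R31Q/- (log2 fold change 2.49 ± 0.16, SE, limma adjusted p = 0.000515) and was below Pax5+/+ in Vav-Cre cells (-1.30, adjusted p = 0.000756).

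Stum and Htra3 had their highest levels in Vav-Cre cells. Stum, a membrane protein related to a mechanotransduction protein of flies, had 0.581 and 0.467 TPM in Pax5+/+, 2.85 and 2.77 in Pax5+/-, 9.89 and 11.2 in Pax5R31Q/-, and 187 and 228 in Vav-Cre libraries. Htra3, a serine protease, had 1.21 and 1.52, 2.48 and 2.03, 16.5 and 22.0, and 38.8 and 32.9 TPM in the same order of genotypes. For both genes the order was Pax5+/+, Pax5+/-, Pax5R31Q/- and Vav-Cre from low to high, without overlap. S1pr3, a receptor for sphingosine 1-phosphate with 2 lost peaks, had 0.433 and 0.701 TPM in Pax5+/+, 8.21 and 6.75 in Pax5R31Q/- and 7.78 and 7.51 in Vav-Cre libraries, the latter within the range of Pax5R31Q/-. Dtx4, a ubiquitin ligase of the Deltex family with 2 lost peaks, had 1.58 and 1.59, 11.6 and 11.6, and 67.9 and 79.0 TPM in these 3 genotypes.

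Rbm24, an RNA-binding protein, had 4.01 and 2.47 TPM in Pax5+/+ and 29.8 and 16.2 in Pax5R31Q/-. Its limma adjusted p of 0.0145 was 0.130 without Pax5+/+ replicate 2, 0.125 without Pax5R31Q/- replicate 1 and 0.0566 without Pax5R31Q/- replicate 2. Gimap3, a GTPase of lymphocytes, was called higher (log2 fold change 2.17, limma adjusted p = 0.0164), which became 0.0506 without Pax5+/+ replicate 1, 0.141 without Pax5R31Q/- replicate 1 and 0.0716 without Pax5R31Q/- replicate 2. The calls of both genes were thus lost in 3 of the 4 settings that left out a library, although the direction stayed.

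**Figure D5:**
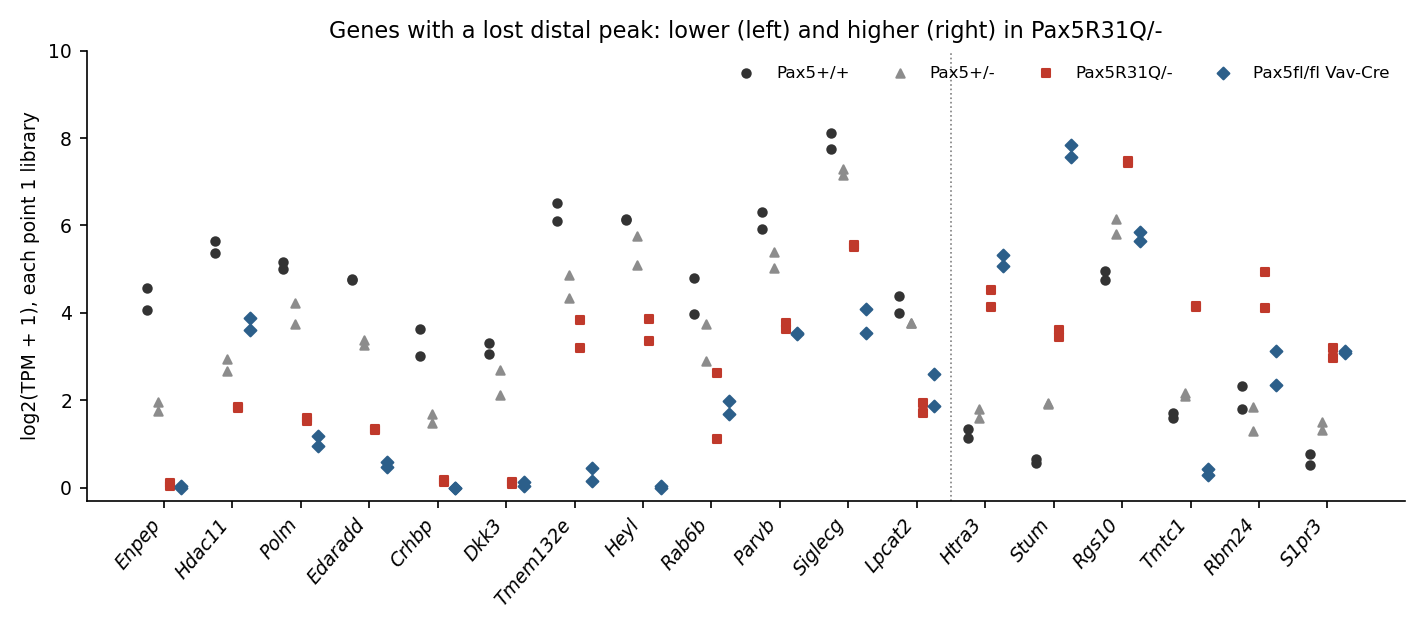
Expression as log2(TPM + 1) of the 12 genes with a lost distal peak that fell most (left of the dotted line) and the 6 that rose most (right) in Pax5R31Q/- cells, each point being 1 of 2 libraries per genotype. Enpep goes from 22.6 and 15.8 TPM in Pax5+/+ to under 0.1 TPM in Pax5R31Q/-, while Rgs10 and Tmtc1 are highest in Pax5R31Q/-.

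The genes with most lost distal peaks are given by their values. Camk2d, Trio and Hivep3 had 8 each. Trio, a guanine nucleotide exchange factor, rose by less than the 3-fold limit (log2 fold change 1.47, limma adjusted p = 0.00311). Camk2d, a calcium-dependent kinase, had a log2 fold change of -1.22 (limma adjusted p = 0.0647). Hivep3, a zinc finger transcription factor, had -0.13 (limma adjusted p = 0.844) in Pax5R31Q/- but -2.87 in Vav-Cre cells. Akap13, Cdkal1, Celf2, Foxn3 and Maml2 had 7 lost peaks each and log2 fold changes from -0.35 to 0.14. Foxn3, like Hivep3, was called lower in Vav-Cre cells (-1.67, limma adjusted p = 0.000289). By limma 0 of these 8 genes were called in Pax5R31Q/- cells, and at an unadjusted p under 0.05 1 was lower and 1 higher. With 0.558% of all genes called lower and 0.275% higher, a count of 0 of 8 says nothing about these genes.

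Pathway genes were counted next. Of the 21 B-lineage transcription factors, all tested, 12 had a lost distal peak, 37 peaks in all, and 0 of the 12 were called by limma in either direction. At an adjusted p under 0.05 and any fold 2 were lower, and at an unadjusted p under 0.05 4 were lower and 0 higher. The whole list had 1 lower call of 21, Klf2 (log2 fold change -1.87, limma adjusted p = 0.0164), which had no lost distal peak, and over all genes 0.558% were called lower and 0.275% higher. The median log2 fold change of the 12 was -0.15. Bach2, a repressor that restrains plasma cell differentiation, had 4 lost peaks and went from 166 and 134 TPM in Pax5+/+ to 79.5 and 48.4 in Pax5R31Q/-, a log2 fold change of -1.25 ± 0.22 (SE, limma adjusted p = 0.0229) that was under the 3-fold limit. Ebf1, which had 5 lost peaks, had a log2 fold change of -0.26 (limma adjusted p = 0.285), Ikzf3 (Aiolos) of -0.82 (adjusted p = 0.102) and Irf8 of -0.79 (adjusted p = 0.15). Pax5 itself had 1 lost distal peak and 431 ± 18.4 TPM (SD, n = 2) in Pax5+/+, 279 ± 10.3 in Pax5+/-, 299.6 ± 9.29 in Pax5R31Q/- and 1325 ± 118 in Vav-Cre cells. The level of the whole gene does not show which exons were covered and so does not check the deletion.

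Of the 26 tested components of pre-B and B cell receptor signalling, 9 had a lost distal peak (13 peaks), and 3 of these were called lower and 0 higher by limma (1 was higher at an unadjusted p under 0.05). The whole list had the same 3 lower calls of 26, and over all genes 0.558% were called lower and 0.275% higher. The median log2 fold change was -0.91 in the 9 genes and -0.36 in all 26. Besides Siglecg these were Pik3ap1, the adaptor that links the receptor to PI3 kinase, and Rasgrp3, an activator of Ras. Pik3ap1 had 471 and 497 TPM in Pax5+/+, 143 and 115 in Pax5R31Q/- and 90.5 and 105 in Vav-Cre libraries (log2 fold change -1.91 ± 0.15 in Pax5R31Q/-, SE, limma adjusted p = 0.0011). This gene also had 2 shared distal peaks and a shared promoter peak. Rasgrp3 had a log2 fold change of -1.76 ± 0.30 (SE, limma adjusted p = 0.0208). Its adjusted p was 0.0584 and 0.159 without Pax5+/+ replicate 1 and 2, and 0.171 and 0.138 without Pax5R31Q/- replicate 1 and 2. Sh3bp5, a protein that binds the kinase Btk, had a lost peak outside this list and was called lower (127 and 148 against 46.4 and 43.5 TPM, log2 fold change -1.59), but was under 3-fold without Pax5+/+ replicate 2 (-1.48) and without Pax5R31Q/- replicate 2 (-1.54). The promoter peak of Sh3bp5 was shared.

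Among 24 adhesion and migration genes, 13 had a lost distal peak (23 peaks), of which 3 were called lower (Nedd9, Parvb and Myo1e) and 2 higher (S1pr3 among them) by limma, with a median log2 fold change of -0.25. The whole list had no further calls (3 lower and 2 higher of 24, against 0.558% and 0.275% of all genes). Myo1e, a class I myosin, had 5 lost peaks and went from 10.5 and 9.97 TPM in Pax5+/+ to 1.95 and 1.60 in Pax5R31Q/- (log2 fold change -2.02 ± 0.20, SE, limma adjusted p = 0.00258). Of 14 genes of V(D)J recombination and end joining, 6 had a lost distal peak and Polm was called lower, the 1 call among all 14 (0.558% of all genes were called lower). The others included Xrcc6 (Ku70) at 0.55 (limma adjusted p = 0.0702), Prkdc at 0.64 (adjusted p = 0.138) and Rag1 at 0.41. Of 19 tested genes of other lineages, 4 had a lost distal peak (Lmo2, Ccr2, Slamf6 and Emb). Their log2 fold changes were from -0.35 to 0.12 and 0 of them were called by limma or had an unadjusted p under 0.05, while 1 of all 19 was called lower (0.558% of all genes lower and 0.275% higher).

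Markers of other cells were counted beside these values, since in sorted cells a lower share of a cell type and less RNA per cell cannot be told apart. The summed TPM of 10 pro-B markers was 15816 and 18565 in the Pax5+/+ libraries, 14556 and 14993 in Pax5R31Q/-, 15611 and 14756 in Pax5+/- and 8467 and 7724 in Vav-Cre libraries. Granulocyte and macrophage markers summed to 299.8 and 216 TPM in Pax5+/+, 504 and 470 in Pax5R31Q/-, 348.8 and 734 in Pax5+/- and 939 and 166 in Vav-Cre libraries, led by S100a8 and Lyz2, and 0 of the 5 passed the limma call in Pax5R31Q/- (1 was higher at an unadjusted p under 0.05). T and NK markers summed to 27.5 and 31.2 TPM in Pax5+/+ and 34.2 and 36.5 in Pax5R31Q/-, with the defining genes Cd3e and Cd3g under 1 TPM. Erythroid markers summed to 27.4 and 18.2 TPM against 19.5 and 16.9, with Hbb-bs at 0 in all libraries. No marker of granulocytes, macrophages, T or NK cells had a lost distal peak, and the part of such cells in the results was not tested.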

How the data were processed

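Pax5 peak lists of 2 ChIP-seq libraries and RNA-seq values of 8 libraries were used as deposited. The authors aligned reads to GRCm38/mm10 (the submitters' processing notes name Bowtie2 2.3.5.1, STAR 2.4.2, SAMtools 1.9 and Picard 2.18.27), called peaks with MACS against an input library and filtered them by p-value. Where they found it necessary, for example when peak regions were compared, the authors down-sampled reads to the smallest read count among the samples. Whether the 2 deposited lists came from such reads is not given in the sources used here, so that unequal depth could still change the lost share. The deposited score of the peaks is 0 throughout. The authors counted uniquely mapping reads on RefSeq genes and deposited TPM for 25579 genes. TPM is scaled to the library total, and read depth was not used. Motifs were searched in the 200 bp around each midpoint and in windows 1000 bp away, with base sequence, soft-masking and TSSs from NCBI's GRCm38.p6. The deposited symbols matched this annotation for 24361 genes (95.2%), and 385 immunoglobulin genes were left out of calls.

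Expression was tested with limma 3.58.1 (lmFit, eBayes with trend) in R 4.3.3 on log2(TPM + 1) over all 8 libraries, and the script was tested on simulated data. Genes named are the 12 lower and 6 higher with the largest change among called genes with a lost distal peak, the genes with most lost peaks (ties at 7 included), genes the study names, and up to 4 per list. Pde9a, Uchl1, Klf2 and Rapgef3 had no lost distal peak. Some genes under this rule are not given. Peak shares, intervals and motifs were computed in Python 3.11.15 (pysam 0.24.0 for sequence, scipy 1.17.1 and statsmodels 0.14.6 for intervals). The peaks, lists and tests were chosen with earlier results of these data known. The restrictions to GC content, to matches near the midpoint and of motif shares to other widths and windows were added after seeing the data.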

Additional observations from a re-analysis of the deposited data

How the results depend on the processing

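No paired analysis was possible because the labels give no replicate numbers, and those used here only name the libraries. The number of lost distal peaks stayed between 4687 and 6420 under other member rules. The difference in consensus matches (9.53 points) was 3.13 with 1 mismatch fewer, 13.2 with 1 more and 14.2 in peaks of 250 to 350 bp. In sites found by positions 1 to 10, the difference at position 11 was 6.28 in peaks of 250 to 350 bp and -5.14 in those over 350 and up to 500 bp, whereas its main value was -1.55. With 1 mismatch fewer, position 12 gave 10.4 and position 14 gave -1.73, the opposite sign. In peaks of 250 to 350 bp, position 12 gave 21.6, position 13 gave 17.4 and position 14 gave 11.3. The frequency of A at position 11 (20.3 points) was at 15.2 in peaks of 45 to 52% GC and at 24.2 in those over 350 and up to 500 bp, and at 19.1 to 20.95 in the other settings. The Mef2 motif, at 0.52 points over all peaks, was at -0.16 in peaks of 45 to 52% GC. The causes of these shifts were not tested.

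Genes with a lost peak called lower in Pax5R31Q/- numbered 66 over 2-fold and 22 to 36 with a library left out, and those called higher 43 and 10 to 17. In Vav-Cre cells the numbers were 291 and 143 to 168 lower, and 195 and 93 to 103 higher. In Pax5+/- cells the 2 genes called lower became 0 with only the 2 genotypes fitted, 1 with a pseudocount of 0.1, 3 without the trend, 0 by gene body alone, and 0 with any library left out. The lone library of a genotype was then assumed to vary like the other libraries. Shares over all genes were not computed for these other settings, so the counts have no background beside them. Unknown peak heights and 1 ChIP-seq library per genotype limit all statements on loss.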
